A study of Mus musculus with 6 samples.

Results

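The genes of the cell's apoptosis machinery, namely the BCL2 family, the caspases, their inhibitors and the receptors that call on them, were read in mouse bone marrow progenitors with and without the microRNA miR-155. The list names 37 regulators. Of these, 33 had a row that carried a single gene symbol, among 14860 genes tested in all, and a gene with several rows was read from its brightest row on average. Bax, Ripk1, Cycs and Birc2 had no such row and were not analysed here.

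Cells lacking miR-155 gave 3 arrays, the knockout arrays, and wild-type cells gave another 3. The labels number the knockout arrays, while the wild-type numbers used here follow only the order of the samples, so arrays with the same number are not paired. Both came from bone marrow of female C57Bl/6 mice aged 12 weeks that had been given 5-FU, a drug that kills dividing marrow cells. In both, MSCV retroviral vectors carried Hoxa9 with GFP and Meis1 with YFP, so that every array, the wild-type ones included, comes from cells forced to express this leukaemogenic pair, and neither group stands for untransduced marrow. The cultures grew in DMEM with 15% FCS, IL3, SCF and IL6, cytokines that themselves keep progenitors alive. The design text speaks of separate experiments for each condition, but the labels name no animals or clones, so each p-value reflects only how these arrays scatter, which may be technical. The comparison asks whether the transcripts that decide between survival and death differ when these oncogenes act without miR-155.

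The microRNA that was deleted is shown here because it is the only difference that the labels give between the groups. Its mature strands are listed from RefSeq (build GRCm38.p6, plus strand of chromosome 16), with the seed, bases 2 to 8, by which a microRNA recognises its targets, in capitals. The 5p strand, at chr16:84714143-84714165, is the one most studied in blood cells, and the 3p strand lies at chr16:84714182-84714202.
mmu-miR-155-5p: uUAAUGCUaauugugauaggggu
mmu-miR-155-3p: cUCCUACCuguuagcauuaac
Target sequences in the members' transcripts were not used here.

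In the mitochondrial pathway of apoptosis, pore formers such as BAX and BAK permeabilise the outer mitochondrial membrane. Survival proteins such as BCL2 and MCL1 hold them in check, and BH3-only proteins lift that restraint. Released cytochrome c then assembles APAF1 and caspase-9 into the apoptosome, while death receptors reach caspase-8 through the adaptor FADD. Myeloid progenitors depend on MCL1 and on cytokine signals to stay alive, and enforced survival is a recurrent step in leukaemia.

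No apoptosis regulator passed the test between the genotypes. After adjustment over all genes 0 of the 33 members passed the limma test at 0.05, against 0.0269% of all genes, and the lowest adjusted p among the members was 0.701. At an unadjusted p under 0.05 there were again 0 members, where 7.23% of all genes were under it. With the arrays shifted to a common median, Pmaip1, Cflar and Aifm1 were under it, 3 of 33 (6.13% of all genes), and their adjusted p stayed at 0.731 or above. In 1 member, Bcl2, the 3 knockout arrays all lay below the 3 wild-type arrays, and in 0 members they all lay above. Among all genes 10.4% were separated in the lower direction and 2.88% in the higher. Differences, given throughout as knockout minus wild type on the log2 scale, ran from −0.20 for Dffa to 0.29 for Cflar, so the widest gap between group means was 1.23-fold. The median difference of the members was −0.03, which is also the median of all genes, and 14 members lay above 0 against 19 below.

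The intervals show how large a difference these arrays could have missed. Like the p-values, they reflect only how these arrays scatter, which may be technical. In 30 of 33 members, the limma 95% interval of the difference lay wholly within 1.5-fold in either direction, as it did for 90.4% of all genes. The other 3 were Cflar, Aifm1 and Bcl2l10, whose intervals ran from −0.03 to 0.62, from −0.005 to 0.586 and from −0.63 to 0.30. The intervals are not adjusted for the number of members. The standard error of a member's difference ran from 0.07 for Bcl2 to 0.20 for Bcl2l10. In 22 of 33 members (66.7%) the spread between arrays of one genotype, as the pooled SD, was larger than the difference between the genotypes, compared with 67.1% of all genes. Leaving out 1 array moved the difference by over 1.5 times or turned its sign in 30 of 33 members, as in 86.3% of all genes. Bcl2, Tnfrsf10b and Aifm1 were the exceptions. As these are bulk cultures, fewer cells of a type and less RNA per cell cannot be told apart.

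**Figure D1:**
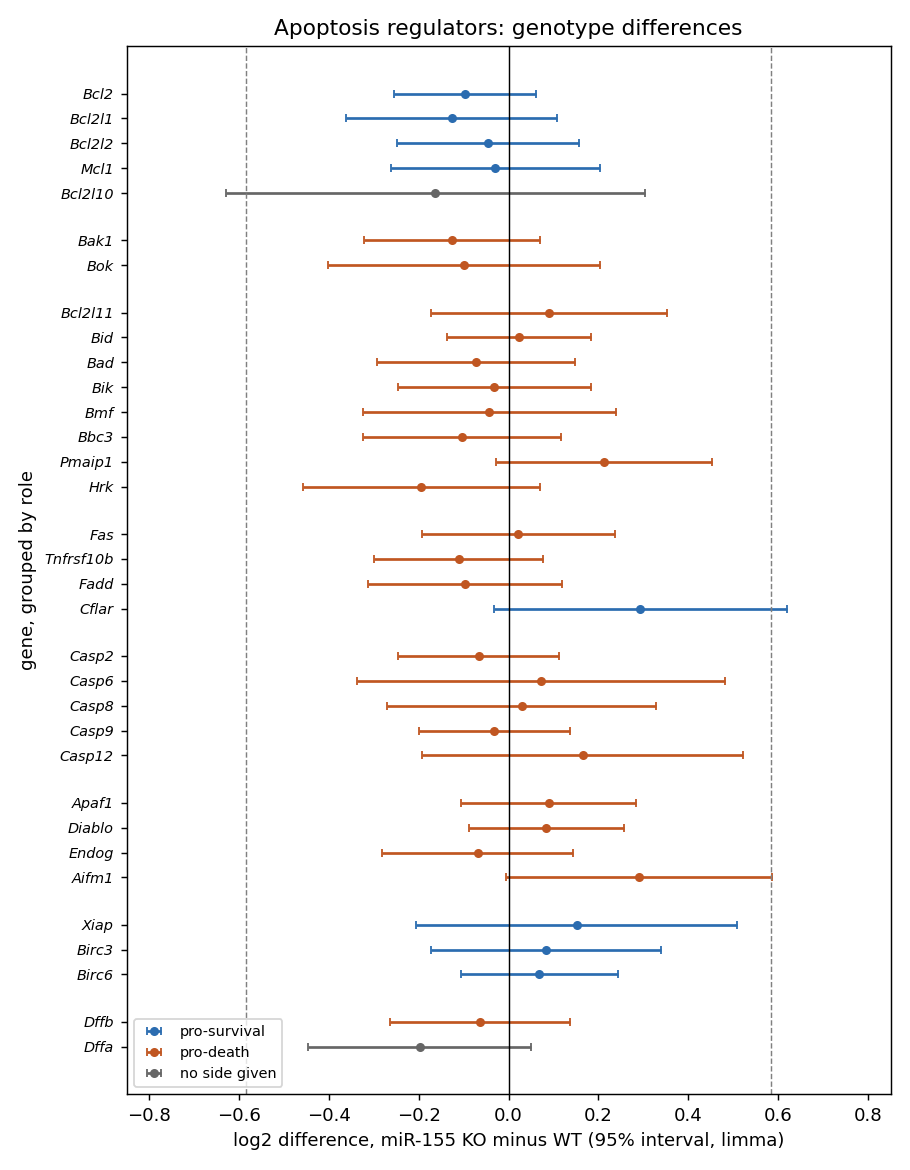
Log2 difference of each of the 33 measured apoptosis regulators, miR-155 knockout minus wild type, with the limma 95% interval (3 arrays per genotype). Genes are grouped by role and coloured by side, the solid line marks 0 and the dashed lines mark 1.5-fold. Every interval includes 0, and those of Bcl2l10, Cflar and Aifm1 reach past a dashed line.

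The 5 BCL2-like genes all had mean differences below 0, and 0 of them passed the test. Among all genes 39.0% lay above 0, and leaving out 1 array put Bcl2l2 at 0.02, Mcl1 at 0.05 and Bcl2l10 at 0.02, each above 0. Bcl2, the founding member, first found at a lymphoma translocation, had log2 levels of 9.69, 9.69 and 9.62 on the knockout arrays and 9.77, 9.74 and 9.79 on the wild-type arrays. The groups did not overlap, and the gap was small. Its difference of −0.10 had a standard error of 0.07 and an interval from −0.26 to 0.06 (limma, adjusted p = 0.836). Bcl2l1, which encodes BCL-XL, stood at 7.43, 7.68 and 7.51 on the knockout arrays and at 7.81, 7.61 and 7.58 on the wild-type arrays. Knockout 2 lay above 2 of the wild-type arrays, and the difference was −0.13 (limma, adjusted p = 0.853). Mcl1, the survival protein on which myeloid progenitors lean most, had levels of 10.10, 10.23 and 9.92 on the knockout arrays and 10.21, 10.06 and 10.07 on the wild-type arrays. The knockout arrays held both the highest and the lowest of these values. Its difference was −0.03 with an interval from −0.26 to 0.20 (limma, adjusted p = 0.967).

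The other 2 relatives also overlapped between the genotypes. Bcl2l2, which encodes BCL-W, gave 6.94 on all 3 knockout arrays and 6.98, 7.13 and 6.86 on the wild-type arrays, a difference of −0.04 (limma, adjusted p = 0.943). Bcl2l10 was among the dimmest members, with a mean under 5.98, which is the level at the 95th percentile among 718 olfactory receptor genes, a class foreign to marrow that serves here as a background level. Its values of 4.49, 5.04 and 5.02 on the knockout arrays and 5.32, 4.70 and 5.03 on the wild-type arrays overlapped widely. It was counted on neither side below, because its role in the mouse is disputed, and nor was Dffa, which has a dual role.

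The pore formers that these proteins restrain also had differences below 0 that did not pass. Bak1, an effector that opens the mitochondrial outer membrane, had 10.06, 10.20 and 10.05 on the knockout arrays and 10.34, 10.18 and 10.18 on the wild-type arrays. Knockout 2 lay above the lowest wild-type array, and the difference was −0.13 with an interval from −0.32 to 0.07 (limma, adjusted p = 0.824). Bok, a relative of BAX and BAK that is controlled by protein turnover, differed by −0.10, and knockout 3 held its highest value at 7.64.

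The 8 BH3-only genes, which sense different kinds of stress, had differences of both signs, and 0 of them passed. Their differences ran from −0.19 to 0.21, with 3 above 0 and 5 below and a median of −0.04. Pmaip1, whose product NOXA neutralises MCL1, had 8.63, 8.50 and 8.28 on the knockout arrays and 8.33, 8.25 and 8.19 on the wild-type arrays. Only knockout 3 reached into the wild-type range. Its difference of 0.21 had a standard error of 0.10 and an interval from −0.03 to 0.45 (limma, adjusted p = 0.734), and it was 0.13 without knockout 1. Hrk, which was first described in neurons, leaned the other way, with 8.89, 9.13 and 9.18 on the knockout arrays and 9.37, 9.09 and 9.32 on the wild-type arrays. Here wild type 2 sat inside the knockout range, and the difference was −0.19 (limma, adjusted p = 0.793), or −0.11 without knockout 1.

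Bcl2l11, which encodes BIM, the BH3-only protein that kills blood cells when cytokines are withdrawn, had 7.37, 7.37 and 7.05 on the knockout arrays. The wild-type arrays gave 7.18, 7.28 and 7.06. The lowest values were those of knockout 3 and wild type 3, and the difference was 0.09 with an interval from −0.17 to 0.35 (limma, adjusted p = 0.911). Bid, which links caspase-8 to mitochondria, was among the steadiest members, with all 6 arrays between 8.16 and 8.24 and a difference of 0.02. Bad, which responds to growth factor signals, Bik and Bmf differed by −0.07, −0.03 and −0.04. Bbc3, which encodes the p53-induced protein PUMA, differed by −0.10.

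Several members are textbook targets of p53, and they did not share a direction. In this group, picked out after its values were seen, Pmaip1, Apaf1 and Fas lay above 0 at 0.21, 0.09 and 0.02, while Bbc3 and Tnfrsf10b lay below at −0.10 and −0.11. The p53 targets Cdkn1a and Mdm2, which are not apoptosis regulators of the list, differed by −0.08 and 0.06 (limma, adjusted p = 0.882 and 0.919). The p53-related genes Trp53inp1 and Perp, described below, differed by more, at 0.46 and −0.39 (limma, adjusted p = 0.499 and 0.577).

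**Figure D2:**
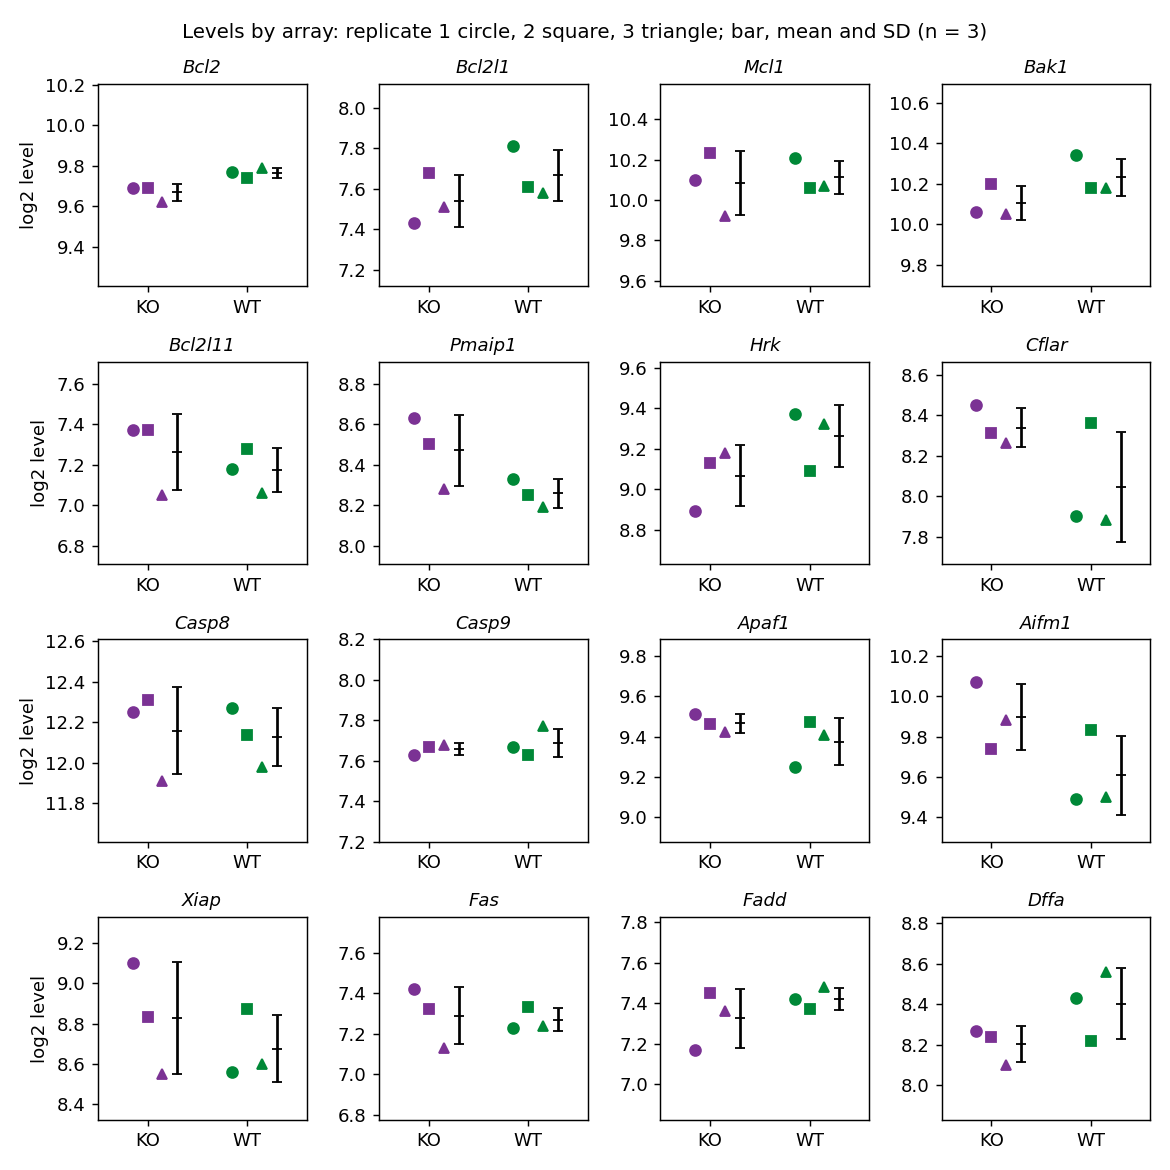
Log2 level of 16 apoptosis regulators on each array, miR-155 knockout on the left and wild type on the right of each panel, with the array's number shown by symbol (equal symbols are not paired) and the mean and SD (n = 3 each) as a bar. Every panel spans 1 log2 unit. Only the Bcl2 groups are free of overlap, while Cflar and Aifm1 have a single wild-type array, wild type 2, at knockout level.

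In the death receptor arm Fas was close between genotypes, Tnfrsf10b and Fadd lay a little below 0, and the inhibitor gene Cflar had the largest difference of the list. Fas, the receptor for FAS ligand, gave 7.42, 7.32 and 7.13 on the knockout arrays and 7.23, 7.33 and 7.24 on the wild-type arrays. The wild-type values lay inside the knockout range, with a difference of 0.02 (limma, adjusted p = 0.974). Tnfrsf10b, the mouse receptor for TRAIL, differed by −0.11 (limma, adjusted p = 0.844). Fadd, the adaptor between receptor and caspase and a gene reported elsewhere as a miR-155 target, had 7.17, 7.45 and 7.36 on the knockout arrays and 7.42, 7.37 and 7.48 on the wild-type arrays. Its knockout and wild-type arrays overlapped, and the difference was −0.10 with an interval from −0.31 to 0.12 (limma, adjusted p = 0.879). Without knockout 1 it was −0.02.

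Cflar encodes a caspase-8 relative without protease activity that blocks caspase-8 at the receptor. It had 8.45, 8.31 and 8.26 on the knockout arrays and 7.90, 8.36 and 7.88 on the wild-type arrays. All knockout arrays were above wild type 1 and wild type 3, and wild type 2 lay within the knockout range. Its difference of 0.29 had a standard error of 0.14 (limma, adjusted p = 0.732). Without wild type 2 it was 0.45 (limma, adjusted p = 0.376), so a single array moved its size by more than 1.5 times. Casp8 itself, the initiator caspase of this arm, had 12.25, 12.31 and 11.91 on the knockout arrays and 12.27, 12.14 and 11.98 on the wild-type arrays. The lowest values were those of knockout 3 and wild type 3, and the difference was 0.03 with an interval from −0.27 to 0.33 (limma, adjusted p = 0.975). In the RefSeq gene table Cflar and Casp8 are neighbours on chromosome 1, with 0 protein-coding genes between them.

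The other caspases varied more between arrays than between genotypes. Casp9, the initiator caspase of the apoptosome, was steady at 7.63, 7.67 and 7.68 on the knockout arrays and 7.67, 7.63 and 7.77 on the wild-type arrays. Its difference was −0.03, with an interval from −0.20 to 0.14 (limma, adjusted p = 0.950). Casp2, a caspase activated by DNA damage and centrosome defects, differed by −0.07. Casp6, a caspase that cleaves lamins, had 10.28, 10.20 and 9.65 on the knockout arrays and 10.09, 10.04 and 9.79 on the wild-type arrays. Knockout 3 was well below the other knockout arrays, whereas the genotypes differed by 0.07. Casp12, associated in the mouse with endoplasmic reticulum stress, lay below the olfactory receptor level at 5.62, 5.70 and 5.11 on the knockout arrays and 5.34, 5.34 and 5.26 on the wild-type arrays. Its difference of 0.17 was 0.35 without knockout 3 (limma, adjusted p = 0.438).

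Of the 4 measured genes for the apoptosome scaffold and for factors released from mitochondria, 3 lay above 0, where 39.0% of all genes did. Apaf1, the scaffold of the apoptosome and also reported elsewhere as a miR-155 target, had 9.51, 9.46 and 9.42 on the knockout arrays. The wild-type arrays gave 9.25, 9.47 and 9.41, with wild type 2 inside the knockout range and the other wild-type arrays below it. The difference was 0.09 with an interval from −0.11 to 0.28 (limma, adjusted p = 0.877), and it was 0.02 without wild type 1. Diablo, which encodes the IAP antagonist SMAC, differed by 0.08, and Endog, a mitochondrial nuclease, by −0.07.

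Aifm1, which encodes a mitochondrial flavoprotein needed for respiration and able to act in caspase-independent death, had the lowest p of all members. Its levels were 10.07, 9.74 and 9.88 on the knockout arrays and 9.49, 9.83 and 9.50 on the wild-type arrays. As with Cflar, wild type 2 lay among the knockout arrays and the other wild-type arrays lay below them. Its difference of 0.29 had a standard error of 0.13 (unadjusted p = 0.0533, limma, adjusted p = 0.701). It ran from 0.20 without knockout 1 to 0.40 without wild type 2.

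The 3 measured inhibitor of apoptosis genes were each above 0, as were 39.0% of all genes, by less than the spread between arrays for Xiap and Birc3. Xiap, which blocks caspases directly, had 9.10, 8.83 and 8.55 on the knockout arrays and 8.56, 8.87 and 8.60 on the wild-type arrays. The knockout arrays spread over more than the whole wild-type range. The difference was 0.15, with an interval from −0.21 to 0.51 (limma, adjusted p = 0.888), while it was 0.01 without knockout 1 and 0.29 without knockout 3. Birc3, a ubiquitin ligase of TNF receptor signalling, differed by 0.08, and the giant ubiquitin ligase gene Birc6 by 0.07. Without knockout 1, Birc3 stood at −0.000145 and Birc6 at 0.04. Downstream, the nuclease gene Dffb differed by −0.06. Dffa, which encodes both chaperone and inhibitor of that nuclease, had 8.27, 8.24 and 8.10 on the knockout arrays and 8.43, 8.22 and 8.56 on the wild-type arrays. Wild type 2 again fell inside the knockout range, and the difference was −0.20 with an interval from −0.45 to 0.05 (limma, adjusted p = 0.766).

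Set side by side, the balance of pro-survival and pro-death genes overlapped between the genotypes. All 8 measured pro-survival members and 22 of 23 pro-death members had a mean above the olfactory receptor level. Probes differ in how strongly they bind, so the level of a gene was not set against that of another, and the sides were compared by their differences and by their balance within an array. The median difference was 0.02 for the pro-survival side, with 4 members above 0 and 4 below, and −0.03 for the pro-death side, with 10 above and 13 below. The sign of the pro-survival median rests on the choice of members. Counting either unsided gene, Bcl2l10 at −0.16 or Dffa at −0.20, as pro-survival would put it below 0. The balance, the mean log2 level of the pro-survival members minus that of the pro-death members on the same array, was 0.80, 0.78 and 0.71 on the knockout arrays. In the wild type it was 0.70, 0.81 and 0.66. The genotypes overlapped, at 0.76 ± 0.04 on the knockout arrays and 0.72 ± 0.08 on the wild-type arrays (SD, n = 3 each), a difference of 0.04. With the BCL2 family alone, 4 survival genes against 10 death genes, the balance was 0.80, 0.86 and 0.72 on the knockout arrays and 0.86, 0.90 and 0.75 on the wild-type arrays. The difference there was −0.04, of the opposite sign and also smaller than the SD of 0.07 on the knockout arrays and 0.08 on the wild-type arrays.

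Proteins that bind each other were then compared as pairs, by the log2 difference of their transcripts on the same array. The 8 pairs were picked with the values known and carry no test. In 1 of them, Mcl1 minus Pmaip1, the genotypes did not overlap, where 8.14% of all 528 pairs of members were separated. This difference was 1.47, 1.73 and 1.63 on the knockout arrays and 1.87, 1.82 and 1.88 on the wild-type arrays, or 1.61 ± 0.13 and 1.86 ± 0.03 (SD, n = 3 each). Every knockout array was lower, by 0.24 on average, while Mcl1 alone differed by −0.03 and Pmaip1 alone by 0.21. Bcl2 minus Bcl2l11 gave 2.32, 2.32 and 2.57 on the knockout arrays and 2.60, 2.46 and 2.72 on the wild-type arrays, with knockout 3 inside the wild-type range. Cflar minus Casp8 gave −3.81, −4.00 and −3.65 on the knockout arrays and −4.37, −3.78 and −4.10 on the wild-type arrays, and wild type 2 again matched the knockout. The genotype differences of the other 5 pairs ran from −0.05 for Bcl2l1 minus Bad to 0.13 for Dffb minus Dffa. A difference within an array shows unequal change and not which transcript changed.

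**Figure D3:**
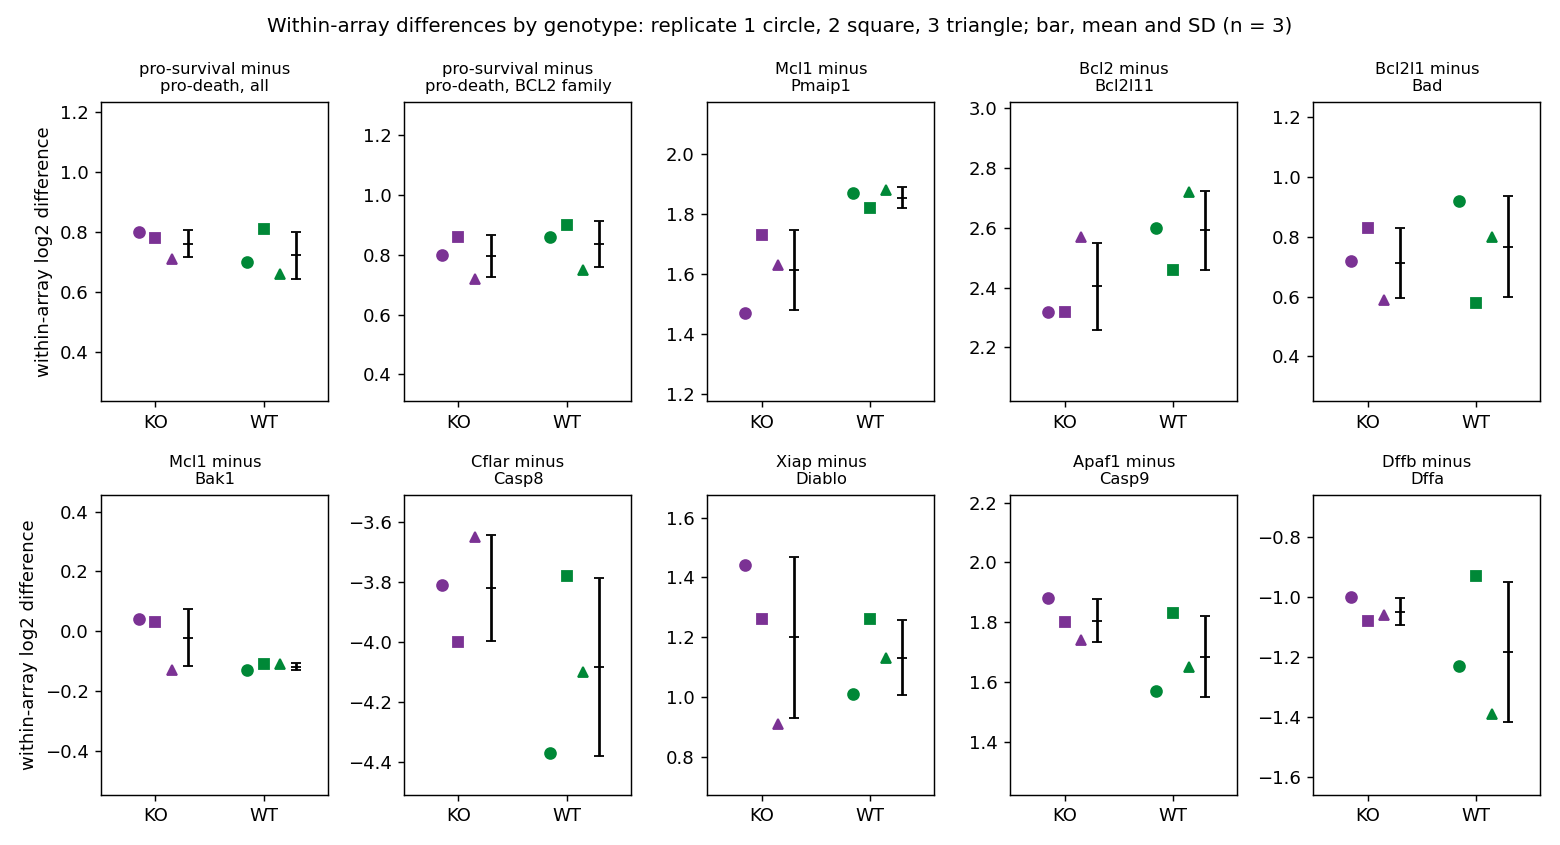
Within-array log2 differences by genotype, with the miR-155 knockout on the left and the wild type on the right of each panel, symbols for array numbers (not paired) and bars for mean and SD (n = 3 each). The first 2 panels give the mean of pro-survival minus pro-death members, and the other 8 give pairs of binding partners. Mcl1 minus Pmaip1 is the only panel without overlap, and every panel spans 1 log2 unit.

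Arrays of the same genotype also differed from each other. In 12 of 33 members (36.4%) knockout 1 was the highest knockout array and wild type 2 the highest wild-type array, the commonest of the 9 combinations both in the members and among all genes, where it held for 24.6%. The count was not tested, and the other 21 members were spread over the remaining combinations. These 12 were Bid, Fas, Tnfrsf10b, Cflar, Apaf1, Diablo, Endog, Aifm1, Xiap, Birc3, Birc6 and Dffb. Knockout 3 was the lowest knockout array for 19 of 33 members, and for 39.5% of all genes. On the first principal component of all rows, which held 39.6% of the variance, knockout 1 and 2 lay with wild type 2, apart from knockout 3 with wild type 1 and 3. The labels name no batch that matches this division, and its cause was not tested. With the side as a block in the fit, the difference of Xiap was 0.03 in place of 0.15, that of Cflar 0.20 in place of 0.29 and that of Aifm1 0.23 in place of 0.29. Pmaip1 stood at 0.17 in place of 0.21, and Bcl2 at −0.10 in both fits. The lowest adjusted p of a member in that fit was 0.554.

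**Figure D4:**
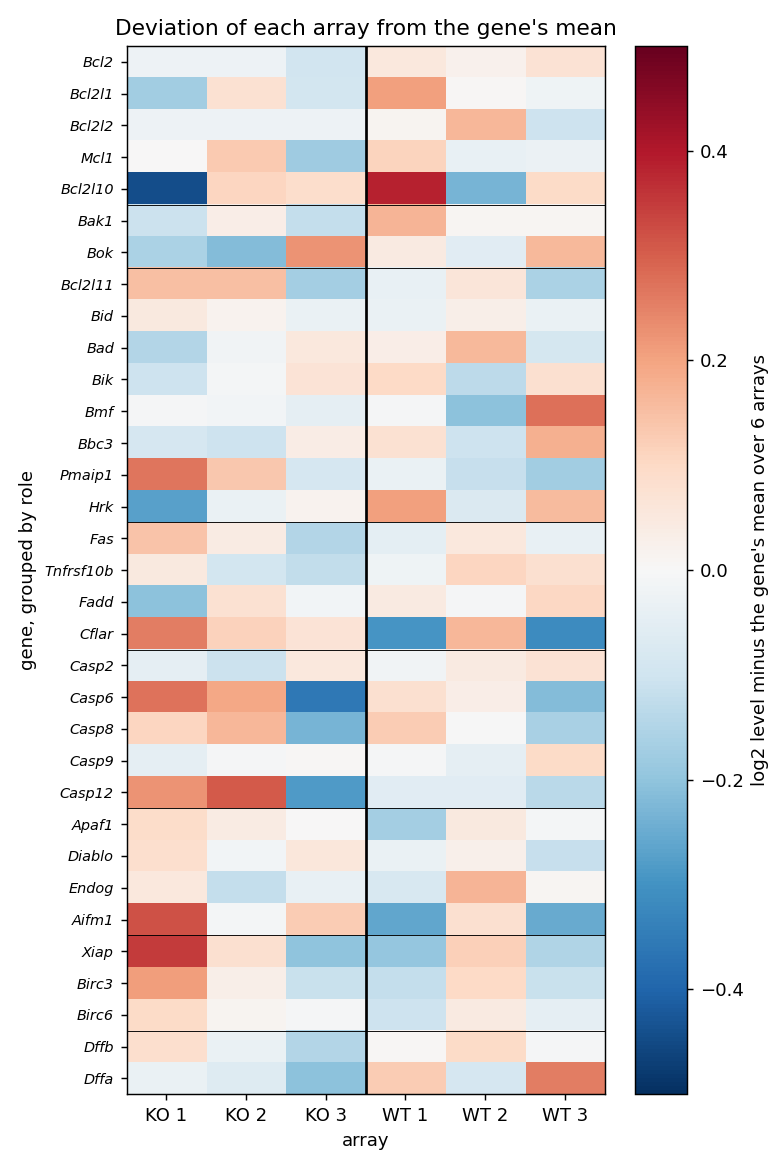
Log2 level of each of the 33 apoptosis regulators on each array minus the gene's mean over all 6 arrays, knockout arrays left of the line and wild-type arrays right of it. Red is above and blue below the mean, and horizontal lines divide the roles. Cflar, Aifm1, Xiap and Birc3 are red on both knockout 1 and wild type 2.

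Of 75 further gene symbols of the pathway, some of them older names of the same gene and listed with earlier results known, 56 had a row, and 0 passed the adjusted test. Their median difference was −0.03. At an unadjusted p under 0.05, 1 was higher and 4 were lower in the knockout, where 1.78% of all genes were higher and 5.44% lower. The higher gene was Trp53inp1, a p53-induced gene that promotes cell death and a reported miR-155 target, at 8.56, 8.48 and 8.53 on the knockout arrays and 8.27, 8.16 and 7.76 on the wild-type arrays (limma, adjusted p = 0.499). The survival kinase gene Pim2 had 8.01, 7.94 and 7.83 on the knockout arrays and 8.35, 8.15 and 8.25 on the wild-type arrays, without overlap (limma, adjusted p = 0.486). Traf1, an adaptor of TNF receptors, was separated as well, at 6.51, 6.61 and 6.49 on the knockout arrays and 6.74, 6.81 and 6.91 on the wild-type arrays (limma, adjusted p = 0.486). The other lower genes were the membrane protein gene Perp, at −0.39 and also without overlap, and the TNF receptor gene Tnfrsf1b, at −0.36 with overlap. Of the 56 genes, 2 were separated in the higher direction and 6 in the lower, where 2.88% and 10.4% of all genes were.

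In the other classes of the pathway, with 12, 11 and 4 genes measured, 0 were under an unadjusted p of 0.05, against 7.23% of all genes. Among the BCL2 relatives, Bnip3, a mitochondrial protein induced by hypoxia, differed by −0.26 (limma, adjusted p = 0.776), and Bcl2l12, Vdac1 and Bnip2 by −0.11, −0.10 and 0.12. Of the genes for inflammatory death, the inflammasome adaptor gene Pycard differed by −0.18 and the necroptosis effector gene Mlkl by 0.17 (limma, adjusted p = 0.741 and 0.818). Septin4, whose ARTS isoform binds XIAP, lay below the olfactory receptor level and differed by −0.09 (limma, adjusted p = 0.930). Birc5, which encodes survivin, differed by −0.05 (limma, adjusted p = 0.948).

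Median log2 values of the arrays lay between 6.55 and 6.66 over 23332 rows. All 10 progenitor markers, among them Kit, Cd34 and Myb, had a mean above the olfactory receptor level. Megakaryocyte markers had a mean log2 level from 8.27 to 8.34 on the knockout arrays and from 7.996 to 8.14 on the wild-type arrays, with 6 of 6 measured markers above 0, as were 39.0% of all genes. Eosinophil markers lay from 6.16 to 6.58 on the knockout arrays and from 6.43 to 6.99 on the wild-type arrays, with 5 of 6 below 0 and Il5ra, Ccr3 and Ear6 below the olfactory receptor level. Macrophage markers lay from 7.97 to 8.34 on the knockout arrays and from 8.28 to 8.52 on the wild-type arrays, with 8 of 10 below 0. Mast cell and basophil markers had 5 of 8 above 0 and 3 below. Among them Fcer1a differed by 0.98 and Prss34 by −0.47 (limma, adjusted p = 0.392 and 0.659). Neutrophil markers had 8 of 12 above 0 and 4 below, with Mmp8 at 0.40 and Lcn2 at −0.34. The part of these cells in the values of the apoptosis genes was not tested.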

How the data were processed

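RNA was hybridised to Affymetrix arrays with the whole-transcript labelling kit that the labels' protocols name. The authors deposited log2 values, summarised with RMA in Affymetrix Expression Console according to the submitters' processing notes. For its version and settings, the sources used here give nothing. Because RMA makes the arrays' distributions alike, differences in total RNA per cell are lost. Values ran from 0.90 to 13.74, as log2 intensities do. The number of arrays limits the precision.

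Of 23332 rows, 14996 had 1 gene symbol in the platform annotation, 1019 had several and 7317 were unnamed here. The row with the highest mean was kept per gene. Knockout was compared with wild type over all 14860 genes with limma 3.58.1 in R 4.3.3 (lmFit and eBayes, no filter), with two-sided Benjamini-Hochberg adjusted p-values. An exact permutation test of 3 against 3 arrays cannot give a p below 0.1. The code of the fit was tried on simulated data with independent noise, in which the added changes were larger than any member's difference. That trial does not bear on changes of the members' size or on differences shared by arrays.

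The members and lists were chosen with earlier results of these data known. Values on every array were given for members without overlap or at an unadjusted p under 0.05, for core members and for reported miR-155 targets, and a few others were added after their values were seen. In each class of other pathway genes up to 4 of lowest p were named, and Cdkn1a and Mdm2 were added after their values were seen. Alternatives were median centring, a further quantile normalization, array weights, a filter at the median level, mean rows per gene, trend and robust variance models, the side of the first principal component as a block and leaving out each array. Figures were drawn with matplotlib 3.10.9 in Python 3.11.15.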

Additional observations from a re-analysis of the deposited data

How the results depend on the processing

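Under all 14 alternatives 0 apoptosis regulators passed the adjusted limma test, and the lowest adjusted p of a member was 0.259, for Cflar with array weights. The count at an unadjusted p under 0.05, 0 with the values as deposited, was 3 after median centring and 3 after a further quantile normalization (Pmaip1, Cflar and Aifm1 each time), where 6.13% and 6.14% of all genes were under it, against 7.23% as deposited. It was 6 with array weights (these 3 with Casp12 higher, Hrk and Dffa lower), where 14.0% of all genes fell under it. It was 1 (Aifm1) among genes above the median level (9.66% of those genes) and 1 (Aifm1) with a variance trend (7.59%). With 1 array left out it ran from 0 to 4, reaching 4 without wild type 2 (9.93% of all genes), 3 without knockout 3 (7.72%) and 1 without knockout 2 (6.68%). The cause was not tested. The balance of 0.04 was −0.0400 with the BCL2 family alone, a set without Cflar and the inhibitor of apoptosis genes. With 1 array left out it ran from 0.00698 to 0.0826, the pro-survival median from −0.0190 to 0.0702 and the pro-death median from −0.0403 to −0.00941. In 23 of 455 values a member turned sign, the largest of them as deposited being Bcl2l10 at −0.163. The trend and robust variance models, the level filter and the mean rows left the members' differences unchanged. The 455 therefore include values that could not turn. Mcl1 was 0.0143 with array weights. With the principal component side as a block Bik was 0.0257, Bmf 0.00774, Fas −0.0332, Casp6 −0.0436 and Casp8 −0.0347. With 1 array left out the ranges of members that turned sign were −0.320 to 0.0186 for Bcl2l10, −0.111 to 0.0242 for Bcl2l2, −0.104 to 0.0537 for Mcl1, −0.105 to 0.00983 for Bik and −0.154 to 0.0818 for Bmf. They were −0.0414 to 0.0990 for Fas, −0.0471 to 0.269 for Casp6, −0.0473 to 0.152 for Casp8, −0.0609 to 0.00632 for Casp9 and −0.000145 to 0.161 for Birc3. No paired analysis was possible because the titles give all wild-type arrays the same number.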
